A study of Brassica napus with 9 samples.

Results

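*Brassica napus* carries 4 gene models annotated as *ANAC072*, also known as *RD26* (*RESPONSIVE TO DESICCATION 26*), and their transcripts were followed in guard cells exposed to abscisic acid (ABA). The copies are the gene rows BnaA01g16400D, BnaA03g48570D, BnaC07g40860D and BnaC01g19550D, which were taken by identifier as 4 of the 101040 genes in the count table. The letter in each identifier gives the A or the C subgenome of this allopolyploid and the digits after it the chromosome, and the copies are called the A01, A03, C07 and C01 copies below. RNA was sequenced from 9 samples of guard cell protoplasts (cells whose walls were digested away) from leaves of 5 to 7 week old plants of the double-haploid line DH12075. The 3 mock-treated samples received ethanol, 3 samples received 10 µM ABA for 15 min and 3 received it for 60 min, all kept in light at room temperature. Each sample pooled 3 to 5 protoplast isolations, and each replicate number from 1 to 3 was an independent set split over the 3 treatments. No mock was matched to each exposure time, so effects of ABA and of time under these conditions cannot be told apart.

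ABA accumulates in plants short of water and closes stomata by acting on guard cells. Its receptors inhibit PP2C phosphatases when ABA is bound, which releases SnRK2 kinases such as OST1, and these kinases phosphorylate bZIP transcription factors of the ABF group that bind the ABA-responsive element of target promoters. In Arabidopsis, RD26 is a transcription activator of the plant-specific NAC family, and its gene is known to be induced by dehydration, high salt and ABA.

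The samples held 88051359 to 123968001 counts each (median 121265229). Levels are given as CPM, in which a count is divided by the library size after scaling with edgeR's TMM method, and all 4 copies had enough counts to be among the 52881 genes tested. CPM is not corrected for gene length, so levels are compared between samples of a copy and not between copies. The labelled cell type was checked on 7 genes of guard cell markers (*ALMT12*, *MPK12* and *OST1*), of which 0 lacked counts in any sample. Their summed level was 227 to 838 CPM in mock-treated samples, 243 to 1079 CPM at 15 min and 639 to 2417 CPM at 60 min, so these genes, which the study chose on these samples, also moved with the treatment. *CAB1* (BnaC03g59520D), a chlorophyll-binding protein gene of mesophyll that guard cells also express, was at 19.8 to 43.0 CPM in mock-treated samples, 22.1 to 46.9 CPM at 15 min and 34.7 to 56.9 CPM at 60 min. The study lists this ortholog among genes differentially expressed in these samples, so its change is not independent of the choice.

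The A01, A03 and C07 copies rose within 15 min and rose further by 60 min, and the C01 copy passed no test. The A01 copy was at 2.53, 4.70 and 1.94 CPM in mock-treated replicates 1, 2 and 3, at 7.45, 9.19 and 9.09 CPM at 15 min and at 54.0, 64.5 and 58.1 CPM at 60 min. Its 3 groups did not overlap, and relative to its level the replicates were spread most widely before ABA. The A03 copy was at 18.7, 30.5 and 7.52 CPM in mock-treated samples, 48.2, 71.0 and 28.1 CPM after 15 min and 210, 244 and 115 CPM at 60 min. For this copy mock-treated replicate 2 was above replicate 3 at 15 min, so these neighbouring groups overlapped, although within each replicate number the level was higher at 15 min. The C07 copy was at 16.2, 20.6 and 7.53 CPM in mock-treated samples, 40.1, 56.1 and 35.6 CPM after 15 min and 155, 160 and 118 CPM at 60 min. The groups of the C07 copy did not overlap, and replicate 3 was the lowest sample of each. Overlap of groups was not counted over all genes tested. The C01 copy was at 1.47, 1.26 and 0.655 CPM in mock-treated samples, 1.45, 1.07 and 0.719 CPM after 15 min and 1.83, 1.5 and 0.554 CPM at 60 min. Its groups overlapped, and replicate 3 was again the lowest of each. Behind these levels stood 63 to 196 counts per sample for the C01 copy, and between 246 and 24320 counts for the other copies.

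**Figure D1:**
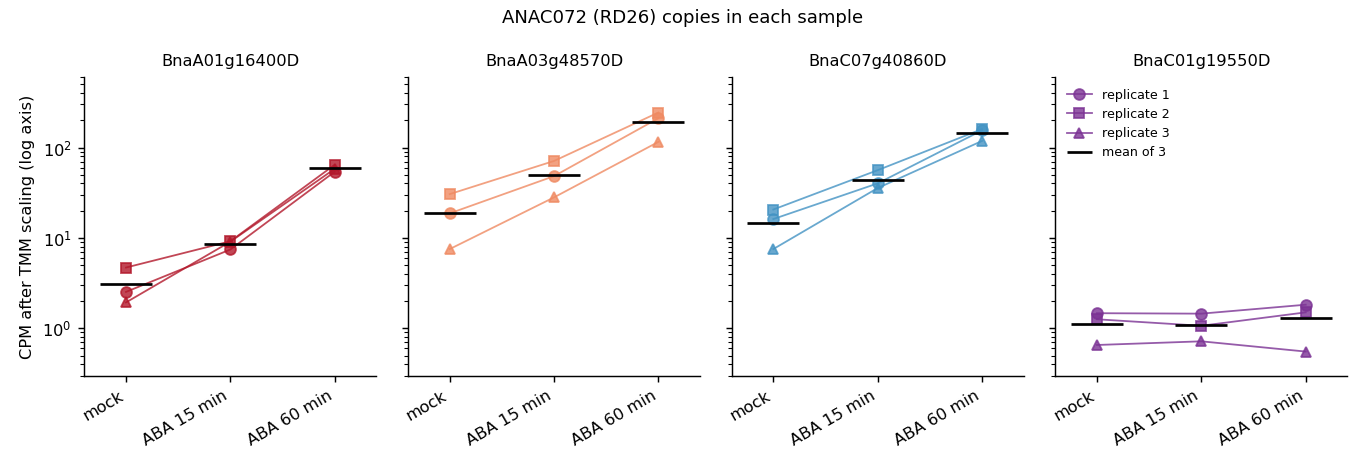
Level of each *ANAC072* copy in each sample, as CPM after TMM scaling on a log axis, with symbols for the 3 replicate numbers, lines joining the samples of a number, and bars for the mean of 3. The A01 copy goes from a mean of 3.06 CPM to 58.9 CPM at 60 min, whereas the C01 copy goes from 1.13 to 1.29 CPM. CPM is not corrected for gene length, so heights are not compared between panels.

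The first comparison asks which copies had responded after 15 min of ABA. Of the 4 copies, 3 passed the threshold and all of these were higher, where 0.431% of the genes tested were called in either direction, 0.395% were called higher and 0.0359% lower. The A03 copy rose from a mean of 18.9 ± 11.5 CPM (SD, n = 3) to 49.1 ± 21.5 CPM, a log2 fold change of 1.47 (SE 0.14, adjusted p = 0.0020 by edgeR's quasi-likelihood test with Benjamini-Hochberg adjustment). The C07 copy rose from 14.8 ± 6.65 to 43.9 ± 10.8 CPM, by 1.64 on the log2 scale (SE 0.17, edgeR adjusted p = 0.0027). The A01 copy rose from 3.06 ± 1.46 to 8.58 ± 0.977 CPM, by 1.55 (SE 0.19, edgeR adjusted p = 0.0075). These are rises of 2.78-fold, 3.12-fold and 2.92-fold, and by log2 fold change they ranked 110, 80 and 97 among the 52881 genes tested, of which the median was 0.00. The C01 copy had a log2 fold change of -0.04, with a 95% interval from -0.43 to 0.35. The calls at 15 min were lost without replicate 1 or without the replicate block, as were most calls over all genes. Without replicate 1, 0 of the 4 copies were called, with log2 fold changes of 1.55, 1.53 and 1.81 and edgeR adjusted p-values of 0.35, 0.16 and 0.14 for the A01, A03 and C07 copies, and without replicate 2 or 3 the count was 3. Without the replicate number as a block, 0 copies were called as well. Over all genes tested, 228 were called in the main fit, 5 without replicate 1 and 5 without the block.

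After 60 min the same 3 copies were far higher than in mock-treated samples. The background here was wide, since 25.7% of the genes tested were called, 15.2% higher and 10.6% lower, and the 3 calls are read against that share. The A01 copy rose 20.0-fold, from 3.06 ± 1.46 to 58.9 ± 5.26 CPM (SD, n = 3), with a log2 fold change of 4.32 (SE 0.20, edgeR adjusted p = 1.6e-06). The A03 copy rose 11.0-fold to 190 ± 66.6 CPM, by 3.46 (SE 0.16, edgeR adjusted p = 1.3e-06). The C07 copy rose 10.4-fold to 144 ± 22.7 CPM, by 3.37 (SE 0.18, edgeR adjusted p = 2.7e-06). In all 3 of these copies the lowest sample at 60 min was above the highest of the other samples. How many of the genes tested separate in this way was not counted. These copies ranked 59, 120 and 126 by log2 fold change among the 52881 genes tested, whose median was -0.03. The C01 copy ranked 16205, with a log2 fold change of 0.14 (95% interval -0.25 to 0.54, edgeR adjusted p = 0.60). All 7 guard cell marker genes were called higher at 60 min, by 1.00 to 2.18 on the log2 scale, and *CAB1* was higher by 0.47 (edgeR adjusted p = 0.0071). At 15 min 0 of the 8 marker genes were called by edgeR, and 0 had an unadjusted p under 0.05. The protoplasts were purified from the leaf tissue and their purity was determined by counting cells before the treatments, per the methods of the study. The part of these markers in the rises of the copies was not tested, and in bulk samples a change in the number of cells of a type and a change in RNA per cell cannot be told apart.

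**Figure D2:**
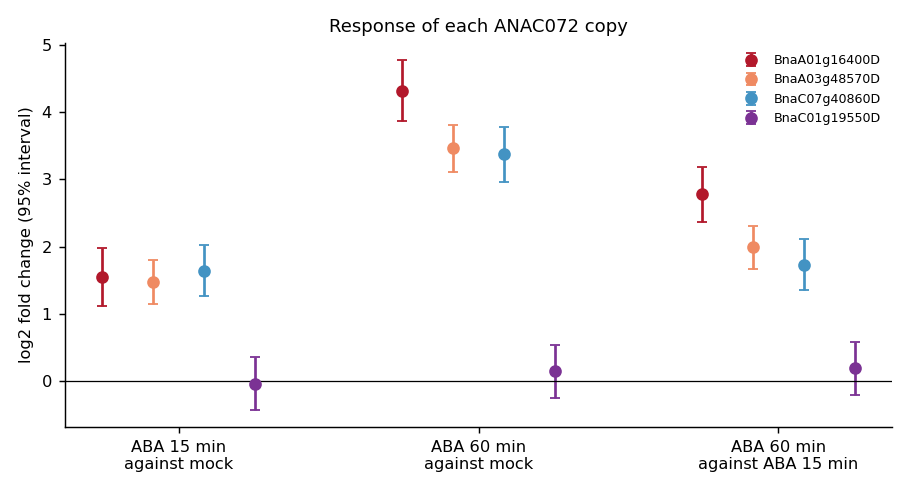
Log2 fold change of each copy in the 3 comparisons, from edgeR, with 95% intervals over the 9 samples. At 60 min against mock the interval of the A01 copy, 3.87 to 4.78, lies above those of the A03 copy, 3.12 to 3.81, and the C07 copy, 2.97 to 3.78, and the intervals of the C01 copy include 0 throughout.

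The third comparison, of 60 min with 15 min, asks whether the rise went on. It did in the same 3 copies, where 23.7% of the genes tested were called, 14.2% higher and 9.45% lower. The A01 copy was 6.85-fold above its 15-min level, a log2 difference of 2.78 (SE 0.18, edgeR adjusted p = 2.5e-05). The A03 copy was 3.97-fold higher (1.99, SE 0.15, edgeR adjusted p = 3.2e-05), and the C07 copy 3.32-fold higher (1.73, SE 0.17, edgeR adjusted p = 1.1e-04). The C01 copy differed by 0.18 on the log2 scale, with a 95% interval from -0.21 to 0.58. Without the replicate block 1 of these calls, that of the A01 copy, passed the threshold. The edgeR adjusted p-values of the A03 and C07 copies were then 0.23 and 0.097, and the calls over all genes fell from 12516 to 243.

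The rise of each copy was divided over the hour as follows. Within a replicate number, the log2 change at 15 min was 35.4% ± 9.92 (SD, n = 3) of that at 60 min for the A01 copy, 42.7% ± 4.86 for the A03 copy and 48.5% ± 8.11 for the C07 copy, and these spreads overlap. On the linear CPM scale the first 15 min held 9.93% ± 2.64 of the gain of the A01 copy, 17.8% ± 2.09 of that of the A03 copy and 22.7% ± 4.72 of that of the C07 copy. The share of the first 15 min was lowest for the A01 copy in each replicate number. The mean gain of the A01 copy was 0.368 ± 0.0956 CPM per min up to 15 min and 1.12 ± 0.0997 CPM per min from 15 to 60 min (SD, n = 3). It was 2.01 ± 0.665 and 3.13 ± 1.04 CPM per min for the A03 copy, and 1.94 ± 0.391 and 2.23 ± 0.362 CPM per min for the C07 copy. The later rate was the higher one in 3 of 3 replicate numbers for the A01 and the A03 copy. For the C07 copy it was higher in replicate 1 alone, since the rates were 2.37 and then 2.30 CPM per min in replicate 2 and 1.87 and then 1.83 in replicate 3. On the log2 scale the mean rates were 0.105 per min and then 0.0618 per min for the A01 copy, 0.0996 and 0.0440 for the A03 copy, and 0.111 and 0.0384 for the C07 copy. The later log2 rate was the lower one in each replicate number for all 3 copies. For the A01 copy in replicate 2 the rates were nearly equal, at 0.0642 and then 0.0624 per min.

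Differences in response between copies were compared within each replicate number as differences of log2 ratios, in which gene length cancels. With 3 replicate numbers an exact two-sided sign-flip permutation test cannot give a p under 0.25, so none of the 6 pairs could pass a threshold of 0.05 at any time point. At 60 min the rise of the A01 copy exceeded that of the A03 copy by 0.91, 0.77 and 0.96 in replicates 1, 2 and 3 (mean 0.88 ± 0.10, exact p = 0.25, adjusted over 6 pairs 0.3). It exceeded that of the C07 copy by 1.15, 0.82 and 0.93 (mean 0.97 ± 0.17, exact p = 0.25, adjusted 0.3). The stronger rise of the A01 copy was seen in 3 of 3 replicate numbers for both partners. The A03 and C07 copies differed by 0.24, 0.04 and -0.03, which has no common sign (mean 0.08 ± 0.14, exact p = 0.5, adjusted 0.5). At 15 min the responding copies did not separate, since the mean differences were 0.08 ± 0.30 for A01 minus A03, -0.09 ± 0.37 for A01 minus C07 and -0.17 ± 0.21 for A03 minus C07, each smaller than its SD (exact p of 0.75, 0.75 and 0.5). From 15 to 60 min the A03 copy rose by more than the C07 copy, by 0.18, 0.27 and 0.31 (mean 0.25 ± 0.067, exact p = 0.25). The C01 copy stood apart from each of the others, whose mean log2 rises at 60 min exceeded its own by 4.25 (A01), 3.37 (A03) and 3.28 (C07), and at 15 min by 1.62, 1.53 and 1.70, in 3 of 3 replicate numbers each (exact p = 0.25). The study had listed this family for the wide spread of its members' fold changes at 60 min in these same samples. The contrast with the C01 copy is therefore not independent evidence.

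The unequal responses changed how the reads of the 4 copies were divided. Together the copies were at 38.9, 57.1 and 17.6 CPM in mock-treated replicates 1, 2 and 3, at 97.2, 137 and 73.5 CPM at 15 min and at 421, 469 and 292 CPM at 60 min. The share of these reads on the A01 copy was 6.51%, 8.24% and 11.0% in mock-treated samples, 7.66%, 6.69% and 12.4% after 15 min and 12.8%, 13.7% and 19.9% at 60 min. The 60-min shares were above all others, the mock and 15-min shares overlapped, and replicate 3 was the highest of each group. The 12.8% of replicate 1 at 60 min was just above the 12.4% of replicate 3 at 15 min. The 95% Wilson intervals of these samples for counting error overlapped, at 12.5% to 13.2% and 11.8% to 13.0%. The share on the C01 copy was 3.79%, 2.21% and 3.71% in mock-treated samples, 1.5%, 0.778% and 0.978% after 15 min and 0.434%, 0.320% and 0.190% at 60 min. These 3 groups did not overlap, and for mock-treated and 60-min replicate 1 the 95% Wilson intervals, which cover counting error only, were 3.22% to 4.44% and 0.375% to 0.501%. The counts of this copy itself were 143, 146 and 90 in mock-treated samples and 182, 150 and 63 at 60 min, so the fall in its share came with a rise of the other copies. The A03 copy held 48.1% ± 5.40 of the reads in mock-treated samples, 46.5% ± 7.25 after 15 min and 47.1% ± 6.69 at 60 min (SD, n = 3). The C07 copy held 40.1% ± 3.53, 43.5% ± 4.28 and 37.1% ± 3.21. The shares of the A03 copy overlapped between all groups, and those of the C07 copy overlapped except that its lowest at 15 min, 40.9%, was just above its highest at 60 min, 40.4%.

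**Figure D3:**
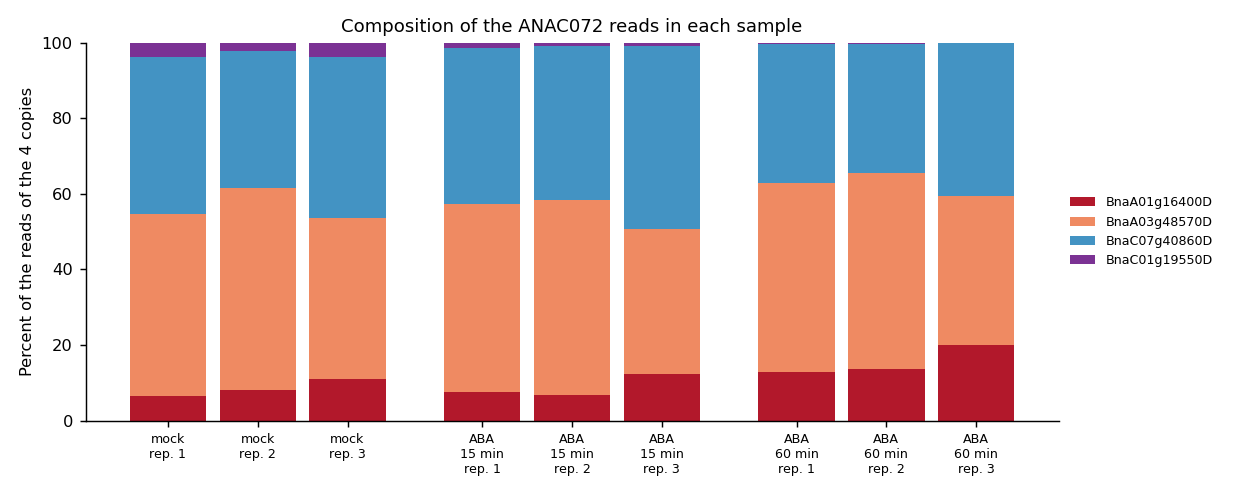
Percent of the reads of the 4 copies that fell on each copy, per sample, stacked to 100. The C01 copy shrinks from 2.21 to 3.79% of the reads in mock-treated samples to 0.190 to 0.434% at 60 min, and the A01 copy reaches 12.8 to 19.9%. Shares are not corrected for gene length.

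Counts of the A01 copy over those of the C01 copy, which lie on chromosomes of the same number in the 2 subgenomes, were 1.72, 3.73 and 2.96 in mock-treated replicates 1, 2 and 3. The ratio was 5.12, 8.60 and 12.6 at 15 min and 29.6, 42.9 and 105 at 60 min, without overlap between groups. Between the A03 and C07 copies it stayed between 0.789 and 1.53 in all 9 samples, and replicate 3 had the lowest ratio of each group. The A and the C subgenome thus each held a strongly responding copy, and the copy that did not pass the threshold was one of the C subgenome.

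The replicate numbers left a common mark on the copies. Replicate 3 was the lowest mock-treated sample for all 4 copies, and it gave the largest log2 rises at both time points for all 3 responding copies. For the A01 copy the rises at 60 min were 4.41, 3.77 and 4.90 in replicates 1, 2 and 3. For the A03 copy they were 3.49, 3.00 and 3.94, and for the C07 copy 3.26, 2.95 and 3.97. Replicate 2, in which these copies had their highest mock level, gave the smallest rise at 60 min in each. The mock level is also the denominator of these rises, so level and rise are not independent. At 15 min the rises were 1.55, 0.96 and 2.22 for the A01 copy, 1.37, 1.22 and 1.90 for the A03 copy, and 1.31, 1.44 and 2.24 for the C07 copy. From 15 to 60 min the replicates were closer together, with rises of 2.86, 2.81 and 2.67 for the A01 copy. The A03 and C07 copies were highest in replicate 2 and lowest in replicate 3 in every group, the C01 copy was highest in replicate 1 and lowest in replicate 3 in every group, and the A01 copy had no such fixed order. After the treatment and replicate terms, the biological coefficient of variation was 0.159 for the A01 copy, 0.129 for the A03 copy, 0.148 for the C07 copy and 0.130 for the C01 copy. The trend at their expression levels was 0.0850, 0.0909, 0.0896 and 0.137, so the responding copies varied more than the trend and the C01 copy did not.

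Likeness of profiles was described by Pearson's r of log2 CPM over the 9 samples, among the 41631 other genes whose mean count reached 50. The points share the 3 treatments and the 3 replicate numbers, so the values describe these samples and carry no test. The genes listed as closest to a copy were picked by r on these same samples. Their fold changes and p-values are therefore not independent of that choice. The A03 and C07 copies were most alike, with r = 0.984, and each was among the closest genes of the other, at ranks 12 and 8. The A01 copy correlated with the C07 copy at 0.972 and with the A03 copy at 0.945, and the C01 copy with the A01, A03 and C07 copies at 0.122, 0.386 and 0.261. The gene most like the A01 copy was BnaA10g12140D (r = 0.997), which rose by 5.15 on the log2 scale at 60 min (edgeR adjusted p = 5.0e-06). Next came BnaA10g16860D and BnaC05g22680D, with r of 0.994 each, whose rises at 60 min were 2.08 and 1.83. The closest genes of the A03 copy were BnaA01g30530D (0.990), BnaC08g21640D (0.988) and BnaC04g39750D (0.988), which rose at 60 min by 2.02, 1.39 and 1.57. Those of the C07 copy were BnaA02g29910D (0.994), BnaC05g21380D (0.991) and BnaC08g32410D (0.988), which rose by 3.89, 2.64 and 2.41. The C01 copy was followed most closely by BnaC05g44800D (0.992), BnaA07g22320D (0.986) and BnaA02g05240D (0.981), and these had log2 fold changes of 0.03, 0.56 and 0.11 at 60 min (edgeR adjusted p of 0.78, 0.10 and 0.57).

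Fixed groups of genes were compared with the copies, made of bZIP factors, factors tied to RD26 or ABA, and genes named for dehydration. The first group held 19 orthologs of bZIP factors that bind the ABA-responsive element or the G-box (*ABF1*, *ABF2*, *ABF4* and *GBF1* to *GBF3*). The study lists these factors for binding sites over-represented in promoters of genes that rose in these samples, so the group is not independent of them. It counts the *ABF* but not the *GBF* factors as part of ABA signalling. Of the 19 orthologs 18 were tested, and BnaC03g25660D reached at most 1 count. At 15 min 0 of the 18 were called by edgeR, beside 0.431% of all genes tested, 4 had an unadjusted p under 0.05, DESeq2 called 1, and the median log2 fold change was 0.13. At 60 min 17 of the 18 were higher and 0 lower, with a median of 1.59 beside -0.03 over all genes tested, of which 15.2% were called higher and 10.6% lower. The exception was an *ABF4* ortholog, BnaA03g35190D, at 0.29 (edgeR adjusted p = 0.31). The largest rise of the group was 3.27 (SE 0.22), in BnaCnng01910D of the *GBF* genes. It was close to the smallest of the 3 responding *ANAC072* copies, at 3.37 (SE 0.18), and below it in point estimate only. The 2 *ABF1* orthologs rose by 0.73 and 0.97 and the 2 *ABF2* orthologs by 1.61 and 1.95. Without the replicate block 7 of the bZIP genes were called higher at 60 min, where the number over all genes fell from 8028 to 837.

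A second group held 6 factor genes that the study ties to RD26 or ABA and chose on these samples, so their direction is not independent evidence. By edgeR 0 of the 6 were called at 15 min, where 4 had an unadjusted p under 0.05 and DESeq2 called 0, and 6 of 6 were higher at 60 min. Over all genes tested 0.431% were called at 15 min, and 15.2% were called higher at 60 min. The 3 *ABF3* orthologs, which encode another ABA-activated bZIP factor, rose at 60 min by 3.75 (BnaAnng26550D), 3.57 (BnaC01g04330D) and 3.93 (BnaC07g44670D). In point estimates these orthologs all lay between the A03 and the A01 copy. At 15 min their log2 fold changes were 1.07, 0.86 and 1.13 (edgeR adjusted p of 0.25, 0.45 and 0.15), and those of the responding *ANAC072* copies lay between 1.47 and 1.64. The 2 *MYC2* orthologs, of a bHLH factor of jasmonate and ABA signalling, rose by 1.25 (BnaC08g07580D) and 0.42 (BnaA05g18020D) at 60 min, and *HY5* (BnaA10g21200D), a bZIP factor of light responses, by 0.71 (SE 0.21, edgeR adjusted p = 0.029).

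The third group held 7 genes named like *RD26* for dehydration, 2 orthologs of *RD22* and 5 of the dehydrin gene *ERD14*, also chosen by the study on these samples. At 15 min 0 of the 7 were called by edgeR or by DESeq2, where edgeR called 0.431% of all genes, and 1 had an unadjusted p under 0.05. At 60 min all 7 were higher, by 1.20 to 1.85 on the log2 scale, each less than a responding *ANAC072* copy in these point estimates, and 15.2% of all genes were called higher there. This count fell to 6 with DESeq2, to 4 without replicate 1 and to 1 without the replicate block. Over all genes, the number called higher fell from 8028 to 7574, 4220 and 837 in these settings. The 2 *RD22* orthologs had spreads above their means at 60 min. BnaC07g29150D was at 3.28 ± 4.07 CPM (SD) there, and BnaA06g39340D at 14.3 ± 17.3 CPM.

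**Figure D4:**
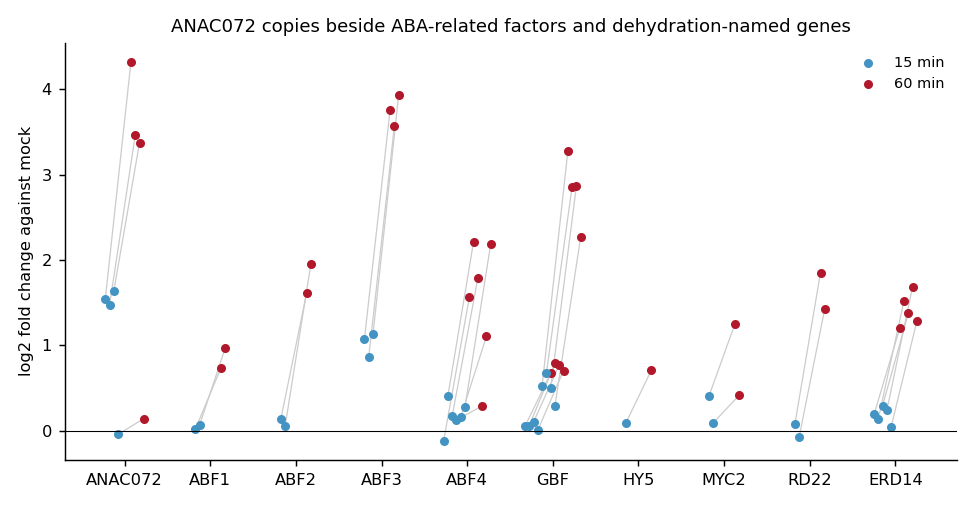
Log2 fold change against mock at 15 min and at 60 min, from edgeR, for the 4 *ANAC072* copies and the tested genes of each named group, with a line joining the values of a gene. At 15 min the 3 responding copies, at 1.47 to 1.64, are above every other gene drawn, the highest of which is an *ABF3* ortholog at 1.13, and at 60 min the A01 copy is the highest at 4.32.

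The responses of the copies were also set beside those of the genes next to them in the order of identifiers, 5 on each side on the same chromosome. Of these 40 neighbours 19 were tested, and the others had too few counts. At 15 min 0 were called by edgeR, beside 0.431% of all genes tested, 3 had an unadjusted p under 0.05 and DESeq2 called 1. At 60 min 2 were higher and 2 lower, and the median log2 fold change was 0.09, where 15.2% of all genes tested were called higher and 10.6% lower. The 2 neighbours that rose stood at the same place before the A01 and the C01 copy, the third identifier before each. BnaA01g16370D rose from 87.0 ± 30.2 to 193 ± 22.5 CPM (log2 fold change 1.19, SE 0.10, edgeR adjusted p = 3.0e-05), and BnaC01g19520D from 86.6 ± 31.0 to 181 ± 19.5 CPM (1.11, SE 0.11, edgeR adjusted p = 7.8e-05). The genes just after the A01 and the C01 copy, BnaA01g16410D and BnaC01g19560D, had 0 counts in all samples. The *ANAC072* copies beside them had log2 fold changes of 4.32 and 0.14. The neighbours that were lower at 60 min were BnaA01g16430D (-0.68, edgeR adjusted p = 0.025) and BnaA03g48610D (-0.37, edgeR adjusted p = 0.034). These counts of neighbours changed with the fit. Without the replicate block 0 were called in either direction, and with scaling by total count alone 8 were called lower. Over all genes the calls fell from 13616 to 895 without the block, and the number called lower rose from 5588 to 23222 with total-count scaling.

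**Figure D5:**
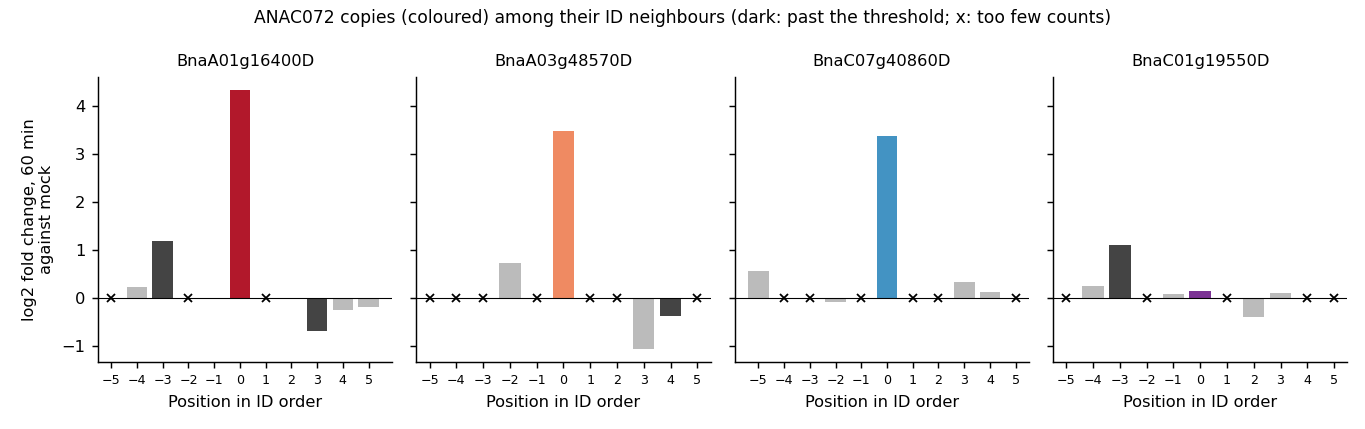
Log2 fold change at 60 min against mock, from edgeR, of each *ANAC072* copy (coloured, at position 0) and of the 5 identifiers before and after it, with dark bars for neighbours past the threshold and crosses for genes with too few counts to be tested. The third identifier before the A01 and the C01 copy rises by 1.19 and 1.11, while the copies themselves stand at 4.32 and 0.14.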

How the data were processed

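RNA from 9 samples, 3 per group, was sequenced by the study. Per the study's methods, the authors mapped single-end reads with TopHat2 (reference: Darmor) and kept, in HTSeq, those assigned to 1 gene without ambiguity. The deposited table gives the resulting raw read counts. Reads shared by near-identical copies are left out, so the part of each *ANAC072* copy that was measured may differ, and the strand setting of the counting is not given in the sources used here.

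From the counts, edgeR 4.0.16 under R 4.3.3 gave TMM factors, filterByExpr, and quasi-likelihood tests with treatment and replicate number in 1 model of all 9 samples, as the study's methods include the replicate. P-values were adjusted (Benjamini-Hochberg, threshold 0.05) over the 52881 genes tested. The SE is the absolute log2 fold change over the square root of F. Ratios within a replicate number used log2 CPM with a prior count of 2. Scripts were tested on simulated data. Deviations from group means correlated at 0.715 to 0.851 across groups for the same number, so the numbers pair the samples. Otherwise the correlations were -0.588 to -0.156. Centring on the mean of 3 samples makes these negative on average when the same-number values are high, so they add no evidence. Libraries of a group were not near copies of each other (chi-square per degree of freedom of at least 144).

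The copies and gene groups were chosen with earlier results of these data known. Genes named are the copies, members of those groups and the 3 genes most like each copy. Alternatives were DESeq2 1.42.0, other scalings and filters, no replicate block, fits of 2 groups and leaving out each replicate number. Gene names come from the study. A RefSeq table of the Da-Ae assembly held 3347 of the 101040 identifiers as symbols and 0 of the 4 copies, so positions, sequences, promoters, other NAC genes and further cell type markers were not analysed here.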

Additional observations from a re-analysis of the deposited data

Results flagged for a closer look

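The changes against mock differed between the 2 exposure times in 3 of the copies, by edgeR's test of 60 min against 15 min. Over all genes tested 23.7% were called in this test, 14.2% higher and 9.45% lower. The log2 fold change against mock was larger at 60 min by 2.78 for BnaA01g16400D, by 1.99 for BnaA03g48570D and by 1.73 for BnaC07g40860D, with edgeR adjusted p-values of 2.5e-05, 3.2e-05 and 1.1e-04, in 3 of 3 replicate numbers each. For BnaC01g19550D the difference was 0.18 (edgeR adjusted p = 0.50). Without the replicate block, BnaA03g48570D and BnaC07g40860D were not called (edgeR adjusted p of 0.23 and 0.097). The cause of these differences was not tested.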

How the results depend on the processing

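Over 10 alternatives, the rises at 60 min of BnaA01g16400D (4.03 to 4.65 on the log2 scale), BnaA03g48570D (3.17 to 3.69) and BnaC07g40860D (3.08 to 3.57) passed the threshold in all 10. Without the replicate block, the rises at 15 min were 1.49, 1.38 and 1.57 with adjusted p-values of 0.80, 1 and 1, and 0 copies were called. Between 15 and 60 min, BnaA03g48570D and BnaC07g40860D then differed by 1.95 and 1.71 and 1 copy was called. The block changed no other call of a copy. Leaving out each replicate number gave rises at 15 min of 1.22 to 1.89, 1.28 to 1.62 and 1.37 to 1.81 for BnaA01g16400D, BnaA03g48570D and BnaC07g40860D, and 0 to 3 copies called. Over all 10 alternatives the adjusted p at 15 min ranged from 5.6e-07 to 0.80 for BnaA01g16400D, and up to 1 for the other responding copies, with 8 of 10 past the threshold for each. BnaC01g19550D passed in none, and its sign turned in 2 settings, to -0.15 at 60 min against mock and -0.068 against 15 min with total-count scaling, and to 0.047 at 15 min without replicate 2, where leaving out each number gave -0.13 to 0.047.

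Total-count scaling moved the median log2 fold change of all genes at 60 min from -0.03 to -0.32, and 15.2% of 27370 called genes were higher, against 59.0% of 13616 with TMM. Against 15 min, 16.4% of 22807 were higher, against 60.1% of 12516. At 15 min 228 genes were called, but 584 without a filter, 521 by DESeq2, 898 with 2 groups in the fit, 5 without the block and 5 to 278 leaving out a replicate number. At 60 min 895 were called without the block and 5818 to 10811 leaving out a number, and between exposures 243 and 3637 to 10843. Of the gene groups, 0 bZIP genes called higher at 15 min became 1 with DESeq2, 2 without a filter and 3 with 2 groups in the fit, and 0 factors tied to RD26 became 3, 3 and 1 without a filter, with 2 groups and without replicate 2. Between exposures, 17 bZIP genes, 6 factors and 7 dehydration-named genes became 6, 2 and 0 without the block, and without replicate 1 the last 2 groups had 3 and 3. Of the ID neighbours, 0 to 4 were called higher and 0 to 8 lower over all settings and comparisons. At 15 min the difference of BnaA01g16400D minus BnaA03g48570D went from 0.084 to 0.25 without replicate 2 and to -0.035 without replicate 3, and that of BnaA01g16400D minus BnaC07g40860D from -0.085 to 0.11 without replicate 2. The SE of BnaC01g19550D, 0.18 at 15 and at 60 min, lay near those of BnaA01g16400D (0.19 and 0.20) and BnaC07g40860D (0.17 and 0.18).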
